A study of Mus musculus with 90 samples.

Results

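The 41 genes described here are components of the cell division machinery, taken by symbol from the deposited count table, which lists 55011 symbols. They form 2 classes by function, and every one of them was found in the table: 27 mitotic genes and 14 genes of DNA replication. Their RNA was measured in 90 mouse libraries that fall into 29 groups, from a study of the mechanosensitive cation channel Piezo1 in muscle mesenchymal stromal cells (MmSCs). MmSC libraries were made from 1000 cells sorted from hindlimb muscle as PDGFRa+ Sca1+ CD31- CD45-, and tissue libraries from 2 ng of RNA of whole tissue. The loss-of-function mice were Pdgfra-Cre Piezo1 f/f, called FL here and named KO in the TA libraries and FL in the others, and their controls were Pdgfra-Cre Piezo1 +/+, labelled WT, so both genotypes carried the Cre transgene, which Pdgfra sequences direct to PDGFRa-expressing cells rather than to muscle fibres. FL and WT mice gave MmSCs on day 1 after intramuscular cardiotoxin (CTX, a snake venom toxin that kills muscle fibres; 3 libraries each), whole tibialis anterior (TA) muscle on days 1 (4 each), 3 and 7 (3 each) after CTX, and MmSCs on day 1 after acute exercise (AEX) or from sedentary (SED) mice (3 each). Hearts of FL and WT mice were taken on day 3 after CTX injury of skeletal muscle or from SED mice (3 each), and uninjured SED mice gave livers (4 each) and quadriceps (3 each). Mice aged 8 to 10 weeks, named WT with no Cre or Piezo1 allele given, gave MmSCs after AEX or exercise training (EXT), each with its own SED controls (3 each). Sorted MmSCs were also cultured briefly with 25 uM Yoda1, a Piezo1 agonist, for 2 h (2 libraries), 4 h or 6 h (3 each), or with vehicle (3 for the 2 h cohort, whose cells are labelled WT for Piezo1 with the Cre, and 3 shared by 4 h and 6 h).

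A dividing cell uses these genes in a fixed order. In late G1, Cdc6 and Cdt1 load the ring-shaped MCM helicase onto replication origins, cyclin E with its kinase starts synthesis, Pcna clamps the polymerase to DNA, and ribonucleotide reductase (Rrm1, Rrm2) and thymidylate synthase (Tyms) supply nucleotides. Later, Cdk1 with A- and B-type cyclins and the Plk1 and Aurora kinases drive entry into mitosis, kinetochore proteins attach chromosomes to the spindle, the checkpoint proteins Bub1, Bub1b and Ttk hold anaphase back, and Cdc20 and Ube2c act with the anaphase-promoting complex to end it. Replication genes are textbook targets of E2F factors, while late mitotic genes are textbook targets of MuvB with B-Myb or Foxm1 through the cell cycle homology region, often beside CCAAT boxes bound by NF-Y. In injured muscle, macrophages, myoblasts and stromal cells are all known to divide.

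The promoters of the members with the largest falls and of the members that rose in FL MmSCs after CTX are shown because the classes went apart in that comparison. RefSeq promoter windows on GRCm38.p6, reaching 250 bases before and 50 after the annotated start, were matched for 35 of the 41 members, 23 mitotic and 12 replication genes. Printed are the last 150 bases before the start and the 50 after it, on the gene's strand, with capitals marking matches on either strand to CCAAT, to the cell cycle homology region or to an E2F site. The cell cycle homology region was searched with the letters TTTGAA, with the variant TTTAAA and with the variant TTCGAA. The E2F site was searched with the letters TTCCCGC, with the variant TTCGCGC, with the variant TTGCCGC and with the variant TTGGCGC. Matches of the first kind may overlap E2F matches, as in Mcm7. The stretches of the genes that fell lie at chr5:30666736-30666935 (plus strand) for Cenpa, chr7:122159285-122159484 (plus) for Plk1 and chr2:164769779-164769978 (plus) for Ube2c.
Cenpa: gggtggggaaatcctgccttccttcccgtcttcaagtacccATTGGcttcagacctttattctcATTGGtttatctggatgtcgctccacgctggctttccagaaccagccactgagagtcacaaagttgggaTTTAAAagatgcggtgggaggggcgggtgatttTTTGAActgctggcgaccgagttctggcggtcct
Plk1: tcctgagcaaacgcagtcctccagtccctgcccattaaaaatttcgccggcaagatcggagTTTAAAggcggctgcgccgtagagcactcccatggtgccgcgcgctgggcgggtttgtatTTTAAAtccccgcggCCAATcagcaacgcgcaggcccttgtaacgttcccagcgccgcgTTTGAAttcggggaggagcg
Ube2c: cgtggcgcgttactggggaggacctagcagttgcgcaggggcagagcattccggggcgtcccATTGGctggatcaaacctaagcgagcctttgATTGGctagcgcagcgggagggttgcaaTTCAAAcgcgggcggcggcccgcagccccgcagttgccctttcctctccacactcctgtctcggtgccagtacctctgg
The stretches of the genes that rose lie at chr8:75109359-75109558 (plus) for Mcm5, chr5:138171834-138172033 (minus) for Mcm7, and chr2:132253131-132253330 (minus) for Pcna. The first capitals of Mcm5 include the end of an E2F match that begins before the printed stretch.
Mcm5: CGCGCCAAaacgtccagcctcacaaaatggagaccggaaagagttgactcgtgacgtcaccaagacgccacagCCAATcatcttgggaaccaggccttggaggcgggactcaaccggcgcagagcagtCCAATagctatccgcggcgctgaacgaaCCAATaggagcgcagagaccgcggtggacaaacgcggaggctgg
Mcm7: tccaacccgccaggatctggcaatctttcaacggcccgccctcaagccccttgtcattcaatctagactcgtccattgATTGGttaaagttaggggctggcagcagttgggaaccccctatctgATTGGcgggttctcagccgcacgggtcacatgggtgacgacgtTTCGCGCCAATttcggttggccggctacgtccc
Pcna: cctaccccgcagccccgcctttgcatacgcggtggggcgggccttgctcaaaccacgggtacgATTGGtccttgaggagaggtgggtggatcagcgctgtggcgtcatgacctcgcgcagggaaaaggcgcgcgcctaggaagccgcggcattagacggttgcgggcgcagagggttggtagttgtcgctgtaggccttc
All 3 of the genes that fell hold both a cell cycle homology region and a CCAAT match in the stretch shown, and none of the 3 that rose holds a cell cycle homology region there. Pcna has a single CCAAT match and no match to the E2F letters searched.

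Over the whole windows, a cell cycle homology region match was present in 22 of 23 mitotic members (95.7%), 5 of 12 replication members (41.7%) and 31.9% of all 27025 genes with a window. E2F letters ran the other way, with 8 of 12 replication members (66.7%), 3 of 23 mitotic members (13%) and 10.9% of all genes. Among the 9671 genes with a window tested in MmSCs after CTX, E2F letters were present in 19.7% and a cell cycle homology region in 24.7%. CCAAT was present in 18 of 23 mitotic members (78.3%), 8 of 12 replication members (66.7%) and 41.1% of all genes, and CCAAT with a cell cycle homology region in the same window in 78.3%, 33.3% and 12.8%. A match is a match of letters and was not tested as a binding site.

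**Figure D1:**
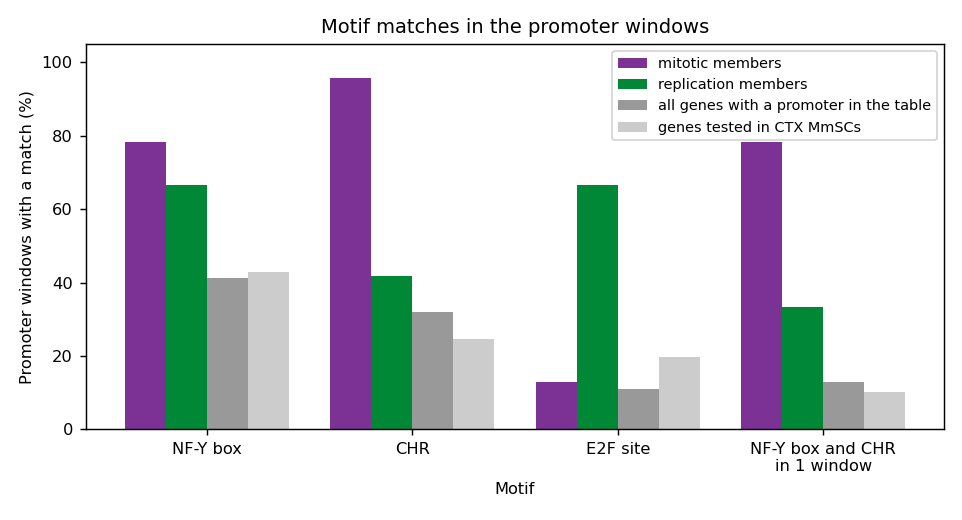
Share of RefSeq promoter windows (percent, bars from 0) that hold each motif, for mitotic members, replication members, all genes with a window and the genes tested in MmSCs after CTX. The cell cycle homology region bar is tallest for mitotic members (95.7%), and the E2F bar for replication members (66.7%).

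Library totals were 1806248 to 10258234 counts for the 44 MmSC libraries, 4051973 to 10226407 for 26 skeletal muscle libraries and 27461930 to 38376123 for 20 heart and liver libraries. Levels are given in CPM, counts scaled to a common library total with TMM factors. Gene-level Piezo1 was 51.8 to 54.5 CPM in FL and 58.9 to 68.5 CPM in WT MmSCs after CTX, and 47.4 to 78.0 CPM in FL against 38.7 to 47.6 CPM in WT MmSCs at rest. A count over the whole gene does not read the floxed exons alone, so it does not check the deletion, and FL stands for the labels FL and KO throughout. No label states that libraries came from separate animals, so p-values measure the spread between libraries. For the 12 MmSC libraries of both genotypes with AEX or SED, each column name is the title of a sample and the library name of another. Their groups were taken from the genotype and treatment in the column name. By the sample of that title 4 of the 12 belong to another group, so these groups are not certain.

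In MmSCs on day 1 after CTX, mitotic RNAs were lower and part of the replication RNAs higher in FL than in WT. Of the 27 mitotic members, 26 fell and none rose (edgeR quasi-likelihood test, Benjamini-Hochberg adjusted p under 0.05 over 12957 genes), against 1.35% of all genes that fell. Of the 14 replication members 3 rose and none fell, against 0.44% of all genes that rose. The median log2 fold change, FL over WT, was -1.05 for mitotic members, 0.32 for replication members and 0.01 for all genes tested. In every mitotic member all 3 FL libraries were below all 3 WT libraries, a pattern found in 9.66% of all genes.

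The centromere and kinetochore genes held the largest fall. Cenpa, the histone H3 variant that marks centromeres, had 7.66, 9.46 and 9.97 CPM in FL and 67.2, 56.5 and 24.8 CPM in WT, a log2 fold change of -2.46 ± 0.39 (SE; adjusted p = 0.038 by edgeR). WT library 3 lay nearest to the FL libraries, and the groups did not overlap. All 5 members of this role fell, the others by 1.35 (Cenpe, a kinetochore motor), 1.2 (Cenpf), 0.76 (Birc5, survivin of the chromosomal passenger complex) and 0.52 (Ndc80, which binds microtubules) on the log2 scale.

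Among kinases and cyclins every member fell. Plk1, the Polo-like kinase needed for spindle assembly, had 8.67, 8.30 and 9.53 CPM in FL and 43.6, 43.6 and 24.8 CPM in WT, with a log2 fold change of -2.08 ± 0.21 (adjusted p = 0.00028). Ccnb2 had 20.2, 23.1 and 30.0 CPM in FL and 104, 87.9 and 57.3 CPM in WT (-1.77 ± 0.23, adjusted p = 0.0074), and Ccnb1 16.2, 21.7 and 23.5 CPM in FL and 83.1, 68.9 and 43.8 CPM in WT (-1.68 ± 0.23, adjusted p = 0.0085). These B-type cyclins activate Cdk1 at mitotic entry, and in both WT library 3 was again the lowest of the controls. Cdk1 itself fell less, with 99.7, 100.5 and 117 CPM in FL and 221, 200.2 and 147 CPM in WT (-0.84), as did Ccna2, which acts in both S phase and mitosis, with 103, 103 and 108 CPM in FL and 166, 143 and 135 CPM in WT (-0.51). The Aurora kinases fell by 1.37 (Aurka, at spindle poles) and 0.57 (Aurkb, at centromeres and the midzone).

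The partners of the anaphase-promoting complex and the checkpoint fell together. Ube2c, its ubiquitin-conjugating enzyme, had 23.7, 20.4 and 20.2 CPM in FL and 92.4, 81.1 and 46.2 CPM in WT (-1.78 ± 0.24, adjusted p = 0.0085). Cdc20, its activator, had 32.4, 27.8 and 30.7 CPM in FL and 103, 88.9 and 58.5 CPM in WT (-1.47 ± 0.18, adjusted p = 0.0032). The FL libraries of both genes lay within a narrow band while WT spread more widely. The 3 checkpoint genes fell by 1.09 (Bub1b), 0.91 (Ttk) and 0.53 (Bub1) on the log2 scale.

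Spindle and cytokinesis genes showed the same direction. Falls among spindle motors and microtubule proteins ran from 1.29 (Nusap1, a spindle microtubule stabiliser) over 1.10 (Kif2c) and 0.67 (Kif11) to 0.60 (Tpx2, which activates Aurka). At the midzone, Prc1, which crosslinks antiparallel microtubules, fell by 1.08 with an SE of 0.11 (adjusted p = 0.00028), Kif23 by 1.05 and Kif20a by 1.00. Anln, an actin-binding scaffold of the contractile ring, was the mitotic member that did not pass, with 33.9, 38.3 and 43.9 CPM in FL and 46.2, 84.0 and 64.0 CPM in WT (-0.74 ± 0.20, adjusted p = 0.11). Top2a, which untangles chromosomes, fell by 0.54 and the proliferation marker Mki67 by 0.57.

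The replication members did not follow. Mcm5, a helicase subunit, had 341, 361 and 331 CPM in FL and 212, 227 and 293 CPM in WT (0.50 ± 0.10, adjusted p = 0.026). Mcm7 of the same ring had 274, 258 and 250.1 CPM in FL and 188, 171 and 224 CPM in WT (0.42 ± 0.09, adjusted p = 0.025), and Pcna 200.3, 211 and 217 CPM in FL and 146, 141 and 184 CPM in WT (0.41 ± 0.09, adjusted p = 0.035). In all 3 genes the FL libraries were above every WT library, and WT library 3 was the closest to them. Mcm6 (508, 536 and 505 CPM in FL, 348, 329 and 463 CPM in WT; adjusted p = 0.073) and Mcm3 did not overlap either but missed the threshold, so 5 replication members had all FL libraries above WT, against 9.65% of all genes. The nucleotide supply genes had fold changes between -0.18 (Tyms) and 0.02 (Rrm2), none past the threshold, and in Rrm1 and Tyms all FL libraries lay below WT.

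The 2 classes can be read against each other within a library. The median mitotic level was 25.1, 26.8 and 25.9 CPM in FL and 67.2, 68.9 and 46.2 CPM in WT, while the median replication level was 285, 274 and 258 CPM in FL and 199.96, 187 and 246 CPM in WT. Their ratio was therefore 0.09, 0.10 and 0.10 in FL and 0.34, 0.37 and 0.19 in WT. Among members compared per kilobase of exon, the level was highest for Rrm2, with 152 ± 2.88 CPM per kb in FL and 149.7 ± 11.7 in WT (SD, n = 3 each), and lowest for Cenpf, with 0.86 ± 0.08 in FL and 1.97 ± 0.38 in WT.

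**Figure D2:**
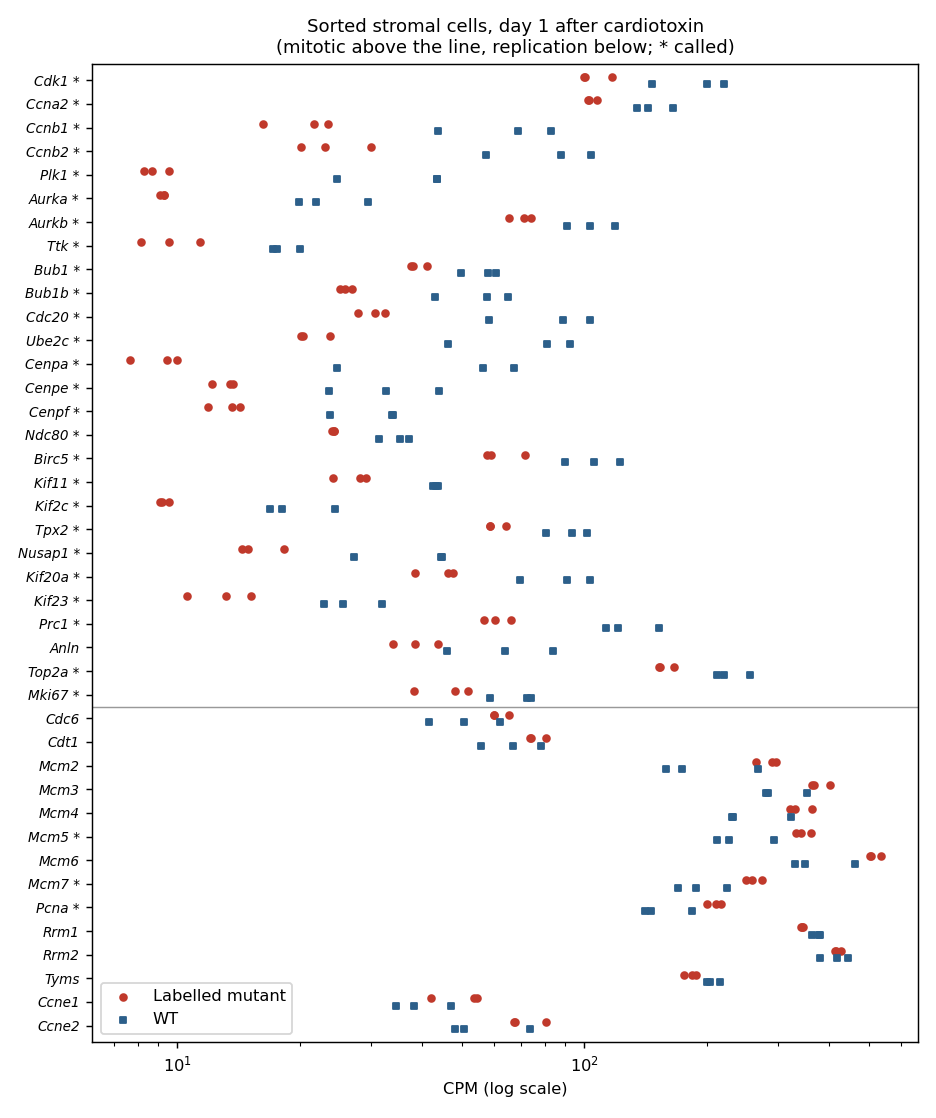
Level of each member in MmSCs on day 1 after CTX (CPM, log axis), one point per library, with FL as red circles above WT as blue squares in each row, a star for members past the threshold and a line between mitotic and replication members. FL points sit left of WT points in all 27 mitotic rows, and right of them in Mcm3, Mcm5, Mcm6, Mcm7 and Pcna.

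Cell cycle genes outside the 41 were read from lists chosen in the same way. Members and lists were chosen with earlier results of these data known, so the lists are not separate evidence. Of 40 other mitotic genes 18 fell and none rose (median log2 fold change -0.54), led by Hmmr, a spindle-associated hyaluronan receptor (-1.26), Knl1, a kinetochore scaffold (-1.21), Cdca3 (-1.17) and Nek2, a centrosome kinase (-1.15). Of 29 other replication genes none passed (median 0.22). None of the 17 RB, E2F and MuvB-Foxm1 regulators passed: Foxm1 had 17.8, 26.2 and 29.2 CPM in FL and 29.1, 31.7 and 31.7 CPM in WT, and E2f1 19.9, 24.7 and 22.2 CPM in FL and 15.3, 18.0 and 18.0 CPM in WT. None of 6 G1 cyclins and kinases passed, and of 7 CDK inhibitors 1 fell, Cdkn2d of the INK4 family (-0.89).

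The sorted cells carried stromal RNA. The 8 stromal markers summed to 27911 to 32877 CPM in FL and 34158 to 41026 CPM in WT, with 1 of them, Col3a1, lower in FL (-0.49), and the 8 macrophage markers to 14.7 to 16.9 CPM in FL and 8.62 to 9.52 CPM in WT, with Lyz2 higher in FL. Ptprc, the pan-leukocyte marker, was at 0 to 0.58 CPM in FL and 0 to 0.90 CPM in WT. The part of these differences in the cell cycle result was not tested. In a bulk library, fewer cycling cells and less RNA per cycling cell cannot be told apart. The count of 29 members called was 34 without WT library 3 and 18 without FL library 2.

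In whole TA muscle on day 1, the mitotic genes were again lower in FL, though few passed the test. Plk1 had 2.10, 1.15, 2.55 and 0.98 CPM in FL and 12, 13, 8.50 and 4.36 CPM in WT, a log2 fold change of -2.47 ± 0.41 (edgeR adjusted p = 0.0094 over 15499 genes). Cdc20 had 3.63, 2.73, 1.95 and 2.30 CPM in FL and 12.9, 15.7, 6.93 and 5.18 CPM in WT (-1.94 ± 0.37, adjusted p = 0.044). Neither gene's groups overlapped, and WT library 4 was the lowest control in both. These 2 were all the members called, against 0.0774% of all genes, 12 genes that all fell. The median log2 fold change was -1.001 for the 27 mitotic members, none of them above 0, and -0.15 for the 14 replication members. In 7 mitotic members no FL library reached a WT library, against 2.3% of all genes. Of 40 other mitotic genes Knl1 fell (-1.69). On that day the 8 stromal markers summed to 3570 to 4552 CPM in FL and 4905 to 5534 CPM in WT, and the 8 myoblast markers to 321 to 426 CPM in FL and 442 to 628 CPM in WT, both without overlap. No marker of these lists was called, and their part in the result was not tested. The count rests on single libraries: 7 members passed without WT library 4, and none without WT library 1 or without FL library 1, 2 or 4. DESeq2 called 10.

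On day 3 the order was turned round, with cell cycle RNAs higher in FL muscle in both classes. Of the 41 members 18 rose and none fell, 9 mitotic and 9 replication genes, against 2.62% of all genes that rose. Over all genes 6.37% fell, and 8.99% were called in either direction. The median log2 fold change of the members was 0.80, with all 41 above 0, and that of all genes -0.02. In 36 members every FL library exceeded every WT library, against 11.3% of all genes.

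Of the mitotic members, Nusap1 had 54.8, 73.8 and 45.2 CPM in FL and 33.5, 26.3 and 15.0 CPM in WT (1.22 ± 0.35, adjusted p = 0.030). Birc5 had 103, 130.3 and 91.8 CPM in FL and 62.3, 52.6 and 28.7 CPM in WT (1.18 ± 0.31, adjusted p = 0.021), and Ccnb1 111, 104 and 84.0 CPM in FL and 63.3, 54.0 and 25.6 CPM in WT (1.06 ± 0.30, adjusted p = 0.031). WT library 3 was the lowest library in each of these genes. Bub1 had 60.3, 49.7 and 47.0 CPM in FL and 28.5, 31.9 and 13.5 CPM in WT, Aurka 55.8, 65.4 and 61.3 CPM in FL and 38.5, 30.6 and 21.9 CPM in WT, and Cenpe 47.9, 65.1 and 51.2 CPM in FL and 30.5, 33.3 and 18.9 CPM in WT. Their log2 fold changes were 1.08, 1.01 and 0.99, and those of Aurkb, Prc1 and Mki67, the other called mitotic genes, were 0.87, 0.85 and 0.85.

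The replication genes that rose included all 3 of nucleotide supply. Rrm2, the regulated small subunit of ribonucleotide reductase, had 373, 487 and 351 CPM in FL and 263, 213 and 96.1 CPM in WT (1.08 ± 0.27, adjusted p = 0.013), Tyms 85.6, 81.4 and 65.2 CPM in FL and 45.4, 40.4 and 24.4 CPM in WT (1.07 ± 0.26, adjusted p = 0.0097), and Rrm1 rose by 0.83. Among licensing factors Cdc6 had 32.7, 22.9 and 19.1 CPM in FL and 16.2, 10.2 and 8.83 CPM in WT (1.08), Mcm6 286, 237 and 238 CPM in FL and 182, 139.7 and 77.5 CPM in WT (0.93), and Mcm5 174, 138 and 161 CPM in FL and 121, 85.5 and 45.6 CPM in WT (0.90). FL libraries were above WT libraries throughout, and WT library 3 again stood lowest. Ccne2, a cyclin E, had 30.8, 35.0 and 22.6 CPM in FL and 18.6, 15.6 and 7.44 CPM in WT (1.09), Mcm3 rose by 0.74 and Pcna by 0.71. Outside the members, 8 of 40 other mitotic genes rose (led by the condensin subunit Smc2, 0.98, and Cdca8, 0.97) and 7 of 29 other replication genes (led by Mcm8, 1.59, and Hells, 1.17), with Cdk6 (0.95) and Rbl1 (0.92) from the G1 and RB lists.

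The whole muscle differed in its cell markers on that day. The 6 fibre markers summed to 4432, 15922 and 14933 CPM in FL and 34960, 37517 and 58056 CPM in WT, and all 6 fell. The 8 macrophage markers summed to 8925, 8598 and 8668 CPM in FL and 7670, 8898 and 6870 CPM in WT, the 8 myoblast markers to 1551, 2032 and 2400 CPM in FL and 2232, 2424 and 2233 CPM in WT, and the 8 stromal markers to 9443, 5629 and 11879 CPM in FL and 11220, 12523 and 12020 CPM in WT, with no marker called in these lists. WT library 3, lowest in cell cycle RNA, was highest in fibre RNA. The part of the fibre difference in the cell cycle result was not tested. Without WT library 3 none of the 41 members passed, and with a fit of the 6 day 3 libraries alone 2 passed, against 25 without WT library 1.

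On day 7 no member passed by edgeR or DESeq2, with 3 at an unadjusted p under 0.05 and 0% of all genes called. Here and below, shares of all genes called use the adjusted threshold and are no background for counts at an unadjusted p. Top2a, the mitotic member of highest mean CPM over both groups, had 33.9, 24.8 and 37.6 CPM in FL and 21.4, 31.1 and 35.4 CPM in WT, and Rrm1 54.6, 78.6 and 74.1 CPM in FL and 73.5, 67.4 and 80.7 CPM in WT. The groups overlapped in both. Ccne2, the member of smallest p, had 4.70, 3.6 and 4.69 CPM in FL and 6.45, 10.7 and 6.74 CPM in WT (-0.88 ± 0.33, adjusted p = 1).

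**Figure D3:**
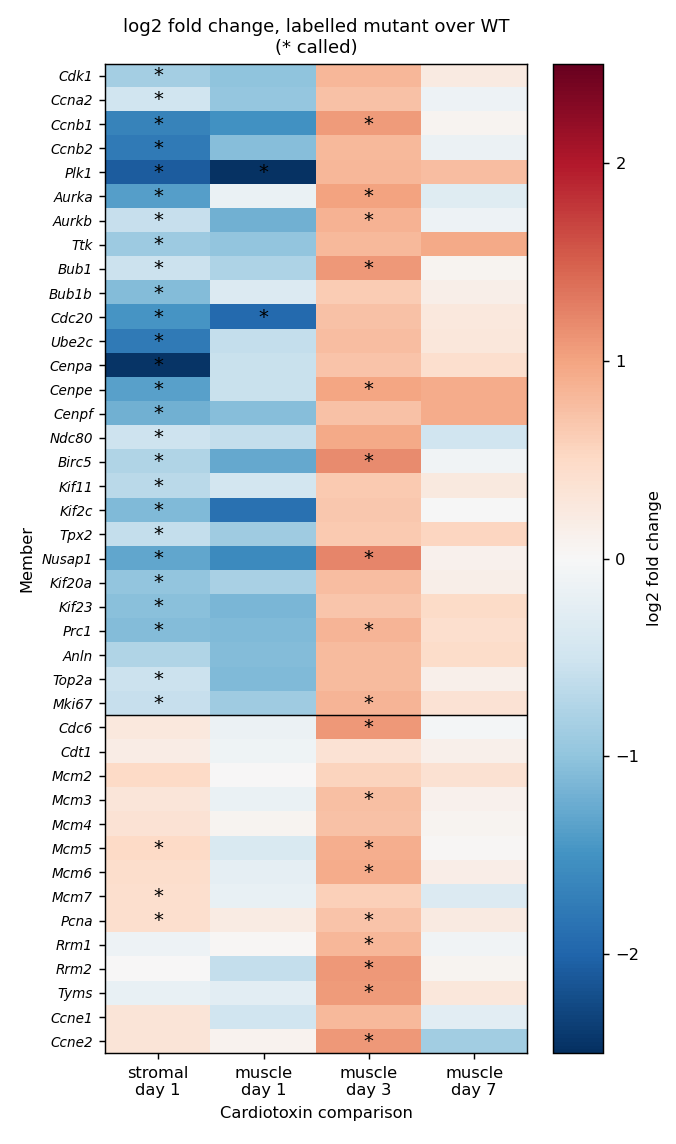
Log2 fold change, FL over WT, of each member (rows) in MmSCs on day 1 after CTX and in TA muscle on days 1, 3 and 7, as colours around 0 with a star for members past the threshold. Mitotic rows are below 0 in both day 1 columns, and all 41 rows are above 0 on day 3.

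Over the days, mitotic RNAs peaked on day 3 in both genotypes, and replication RNAs in FL muscle. In FL muscle all 41 members rose between days 1 and 3, against 22% of all genes that rose (44.6% called in either direction), by a median of 3.39 on the log2 scale. In WT muscle 32 members rose, all 27 mitotic and 5 replication genes, against 14.1% of all genes, by a median over all members of 1.61. Between days 3 and 7 all 41 members fell in FL muscle (27% of all genes fell and 52.7% were called, member median -2.84) and all 41 in WT muscle (22.4% fell and 20.1% rose, median -2.25). These contrasts share the day 3 libraries with each other and with the FL to WT contrast, so they are not separate evidence. Marker sums moved over the same days. Macrophage markers summed to 2564 to 3688 CPM on day 1, 8598 to 8925 CPM on day 3 and 1248 to 1889 CPM on day 7 in FL, and to 2792 to 4215, 6870 to 8898 and 1030 to 1777 CPM in WT. Myoblast markers summed to 321 to 426, 1551 to 2400 and 652 to 761 CPM in FL, and to 442 to 628, 2232 to 2424 and 542 to 642 CPM in WT. Fibre markers were lowest on day 3 in both genotypes. Their part in the time course was not tested.

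Plk1 gives the shape for mitotic genes. It had 0.98 to 2.55 CPM on day 1, 66.9 to 82.4 CPM on day 3 and 7.88 to 9.24 CPM on day 7 in FL, and 4.36 to 13, 24.1 to 60.2 and 1.87 to 6.74 CPM on the same days in WT. Cdc20 had 1.95 to 3.63, 104 to 118 and 9.93 to 15.7 CPM in FL, and 5.18 to 15.7, 37.4 to 86.7 and 6.62 to 15.5 CPM in WT. The rise between days 1 and 3 was 5.47 (Plk1) and 5.38 (Cdc20) on the log2 scale in FL muscle, and 2.18 and 2.72 in WT muscle. The other members with the largest rises in FL muscle were Ccnb2 (5.16), Ccnb1 (5.12), Nusap1 (4.85) and Kif2c (4.73).

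Replication genes began higher and rose less between days 1 and 3, by a class median of 1.46 in FL and 0.41 in WT on the log2 scale, against 3.68 in FL and 2.05 in WT for mitotic genes. Between days 3 and 7 the class medians were closer, with -2.72 for replication and -2.95 for mitotic genes in FL, and -2.05 and -2.44 in WT. Rrm2 had 32.7 to 49.7 CPM on day 1, 351 to 487 CPM on day 3 and 18.9 to 25.4 CPM on day 7 in FL, and 50.6 to 79.5, 96.1 to 263 and 15.6 to 26.0 CPM in WT. Mcm6 had 61.9 to 106, 237 to 286 and 29.3 to 41.1 CPM in FL, and 81.8 to 112, 77.5 to 182 and 19.7 to 39.7 CPM in WT. The day 3 gain of Rrm2 was 3.23 in FL and 1.55 in WT on the log2 scale, and the WT gain of Mcm6 (0.42) did not pass. The other replication genes that rose in WT muscle were Ccne1 (1.44), Rrm1 (1.09), Mcm7 (0.82) and Mcm2 (0.76). The class medians of a library show the difference: their ratio, mitotic to replication, was 0.09 to 0.18 on day 1, 0.64 to 0.70 on day 3 and 0.45 to 0.58 on day 7 in FL, and 0.11 to 0.27, 0.60 to 0.67 and 0.46 to 0.56 in WT.

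The joint test of genotype by day over days 1, 3 and 7 called 17 members, 15 mitotic genes with Rrm2 and Ccne2, against 3.89% of all genes. Their adjusted p by this edgeR joint test was 0.0017 for Plk1, 0.0030 for Prc1 and 0.0039 for Mki67. It covers all days and does not test the change between days 1 and 3 alone. That change in the FL to WT difference was 3.29 for Plk1, 1.95 for Prc1 and 1.75 for Mki67 on the log2 scale. Among regulators, Foxm1, an activator of late mitotic genes, was called (2.06), with 3.63, 1.15, 4.34 and 1.48 CPM in FL and 6.71, 8.96, 7.72 and 7.77 CPM in WT on day 1, and 29.6, 18.2 and 25.0 CPM in FL and 17.5, 20.6 and 12.3 CPM in WT on day 3. Its groups did not overlap on day 1 and overlapped on day 3. Leaving out single libraries gave 10 to 27 members, 10 without WT library 3 of day 3, among others.

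**Figure D4:**
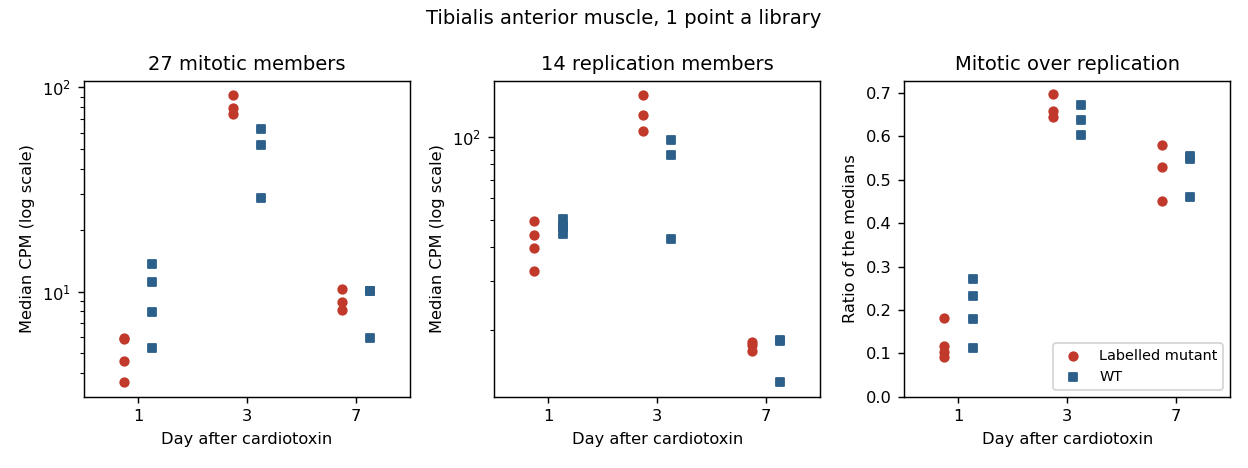
Median level of mitotic members, median level of replication members (CPM, log axes) and their ratio in TA muscle by day after CTX, one point per library, FL as red circles and WT as blue squares. The mitotic medians peak on day 3 in both genotypes, at 73.8 to 91.3 CPM in FL and 28.7 to 62.3 CPM in WT.

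In MmSCs at rest and after exercise, mitotic medians were 0.33 to 2.65 CPM in all libraries but 2 of WT SED. After AEX in the first cohort, 23 of the 41 members had counts high enough to test. None passed by edgeR, against 0.736% of all genes. At an unadjusted p under 0.05 there were 8 members, with no share of all genes given, and DESeq2 called 4. The median mitotic level was 0.82, 0.77 and 0.96 CPM after AEX and 2.53, 1.35 and 0.91 CPM in SED, where library 3 overlapped the exercised ones. Ccnb2, the member of smallest p, had 0, 0.57 and 0.32 CPM after AEX and 4.47, 6.59 and 1.82 CPM in SED (adjusted p = 0.059). Cenpa, the mitotic member of highest mean CPM over both groups, though not in SED alone, had 4.10, 0.77 and 3.03 CPM after AEX and 5.81, 6.29 and 0.91 CPM in SED. Mcm6 had 57.1, 82.2 and 58.0 CPM after AEX and 36.5, 49.5 and 33.1 CPM in SED (0.72 ± 0.20, adjusted p = 0.12), with no overlap. Without AEX library 1, 4 members passed. After AEX and in SED, stromal markers summed to 42595 to 43770 and 55003 to 55170 CPM, and endothelial markers to 222 to 269 and 316 to 484 CPM. B cell markers summed to 1.72 to 3.12 CPM after AEX and 0.74 to 1.27 CPM in SED. None of these sums overlapped, and their part was not tested.

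After EXT none of 34 tested members passed by edgeR or DESeq2 (0.484% of all genes, 0.281% higher; 2 members at an unadjusted p under 0.05). Cdt1, which loads the MCM helicase, had 14.6, 15.4 and 18.4 CPM after EXT and 9.15, 9.96 and 11.2 CPM in SED (0.68 ± 0.21, adjusted p = 0.18). Rrm1 had 40.8, 33.1 and 50.002 CPM after EXT and 71.6, 62.7 and 47.0 CPM in SED, and Birc5 7.38, 4.63 and 9.19 CPM after EXT and 3.81, 5.59 and 6.76 CPM in SED. The groups did not overlap in Cdt1 and overlapped in the other 2. From the other lists, E2f6 rose (0.97), and the phosphatase Cdc25b (-1.55) and Tubb5 (-0.61) fell.

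In the cohort with both genotypes, the WT SED libraries differed from each other. Their median mitotic level was 0.53, 8.88 and 17.7 CPM, and the 8 stromal markers summed to 58130, 82271 and 128393 CPM in the same libraries. The other 9 libraries had mitotic medians of 0.33 to 2.55 CPM. Kif2c, a microtubule-depolymerising kinesin, fell after AEX in WT MmSCs, with 0.11, 0 and 0.11 CPM after AEX and 0.66, 3.76 and 7.36 CPM in SED (-5.48 ± 1.18, adjusted p = 0.032), the single member called, against 0.405% of all genes that fell. It rests on 2 counts after AEX and 98 in SED, a ratio of 0.0184 (95% exact interval from counting alone 0.00219 to 0.0681). Leaving out WT SED library a, the lowest, gave 9 members and leaving out any other library of the 2 groups none, while DESeq2 called 4 members and not Kif2c. Grouped instead by the sample whose title is the column name, which moves 4 of the 12 libraries, WT SED library a among them, no member passed. The replication genes did not follow in this contrast either: their median log2 fold change was 0.46, against -2.48 for mitotic genes, and 6 of them had all AEX libraries above SED, against 10.9% of all genes.

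With the same uncertain groups, taken from the column names, the other contrasts of that cohort called no member by edgeR or DESeq2. FL against WT at rest had a median mitotic log2 fold change of -2.07 with none of 27 above 0. At an unadjusted p under 0.05 there were 13 members, with no share of all genes given at that threshold. At the adjusted threshold 0.00675% of all genes were called. Nusap1, of smallest p, had 1.22, 0.72 and 1.38 CPM in FL and 2.63, 4.67 and 10.1 CPM in WT (adjusted p = 0.31), Ccnb2 5.10, 16.4 and 3.65 CPM in FL and 3.16, 20.2 and 43.2 CPM in WT, and Rrm1 46.6, 71.6 and 25.8 CPM in FL and 49.6, 40.4 and 48.3 CPM in WT. Only Nusap1 of these was without overlap, and 4 members passed without WT library a. AEX against SED in FL had 6 members at an unadjusted p under 0.05 (0.162% of all genes called), the smallest in Cdt1, with 7.93, 15.9 and 5.93 CPM after AEX and 4.98, 2.88 and 4.44 CPM in SED. Birc5 had 6.08, 7.31 and 7.03 CPM after AEX and 9.86, 8.44 and 2.27 CPM in SED, and Rrm1 60.8, 56.3 and 54.8 CPM after AEX and 46.6, 71.6 and 25.8 CPM in SED. FL against WT after AEX had 1 member at an unadjusted p under 0.05, Mcm3, with 16.9, 15.9 and 17.1 CPM in FL and 34.6, 30.9 and 28.1 CPM in WT, where no gene at all was called (0%). Mcm6 had 40.0, 65.1 and 59.2 CPM in FL and 53.5, 58.8 and 71.8 CPM in WT after AEX. The interaction of genotype with AEX called no gene (0%) and had 5 members at an unadjusted p under 0.05.

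In cultured MmSCs, 0 to 2 members were called at each time of Yoda1. At 2 h none of 24 tested members passed by edgeR or DESeq2, against 11.2% of all genes (5.3% higher and 5.94% lower), with 4 at an unadjusted p under 0.05. Ccne2 had 7.35 and 16.9 CPM with Yoda1 and 1.93, 5.09 and 3.75 CPM with vehicle (1.72 ± 0.65, adjusted p = 0.11). Mcm6 had 75.6 and 56.0 CPM with Yoda1 and 49.7, 59.8 and 46.9 CPM with vehicle, and Birc5 2.14 and 5.28 CPM with Yoda1 and 6, 5.09 and 11.3 CPM with vehicle. Ccne2 did not overlap and the others did, and 4 members passed without Yoda1 library 1 and 3 without library 2, fits in which the lone Yoda1 library is assumed to vary like the vehicle libraries. The CDK inhibitor Cdkn1a rose (0.95), as did Pttg1, which encodes securin (1.49). E2f1 fell, with 0 and 0.53 CPM with Yoda1 and 10.1, 3.45 and 3.96 CPM with vehicle. These are single genes from the other lists, at a time when 11.2% of all genes were called. The Yoda1 libraries were shallower, with 3416913 and 1806248 counts against 4667436 to 5621061 with vehicle, so these low E2f1 levels rest on few counts. With Yoda1 and with vehicle, stromal markers summed to 45863 to 51323 and 53354 to 55538 CPM, and myoblast markers to 4.76 to 13.2 and 28.9 to 37.3 CPM. Macrophage markers summed to 4.76 to 13.2 and 19.8 to 27.8 CPM, and pericyte markers to 28.0 to 34.3 and 35.4 to 53.3 CPM. None of these sums overlapped, and their part was not tested.

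At 4 h 2 of 35 tested members fell, both MCM subunits, against 2.12% of all genes that fell and 5.71% called in either direction, so the share of members called was near that of all genes. Mcm6 had 42.5, 54.3 and 40.2 CPM with Yoda1 and 70.5, 69.4 and 66.8 CPM with vehicle (-0.60 ± 0.12, adjusted p = 0.00095). Mcm4 had 22.5, 35.4 and 24.2 CPM with Yoda1 and 35.3, 39.9 and 42.0 CPM with vehicle (-0.52 ± 0.15, adjusted p = 0.034). Mcm6 did not overlap, while Yoda1 library 2 reached the lowest vehicle library in Mcm4. Tk1, thymidine kinase, a single gene from the other lists, rose (0.63). A single member passed when any of 4 of the 6 libraries was left out.

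At 6 h, against the same vehicle libraries, 1 of 35 tested members rose, against 6.53% of all genes that rose. Pcna had 38.9, 36.1 and 35.6 CPM with Yoda1 and 27.7, 22.2 and 31.9 CPM with vehicle (0.44 ± 0.14, adjusted p = 0.036), without overlap. Mcm6 had 68.4, 54.0 and 52.6 CPM and Mcm4 31.7, 29.2 and 39.3 CPM with Yoda1 at 6 h, and neither passed. Cdkn1a rose (0.34) and Rfc3, a subunit of the loader of the Pcna clamp, rose (1.05), while Cdkn1b (-0.57), Ccnd3 (-0.45) and Rbl2 (-0.41) fell. These are single genes from the other lists, at a time when 6.53% of all genes rose, and were not tested as a group. Pcna was not called when any library other than vehicle library 3 was left out.

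**Figure D5:**
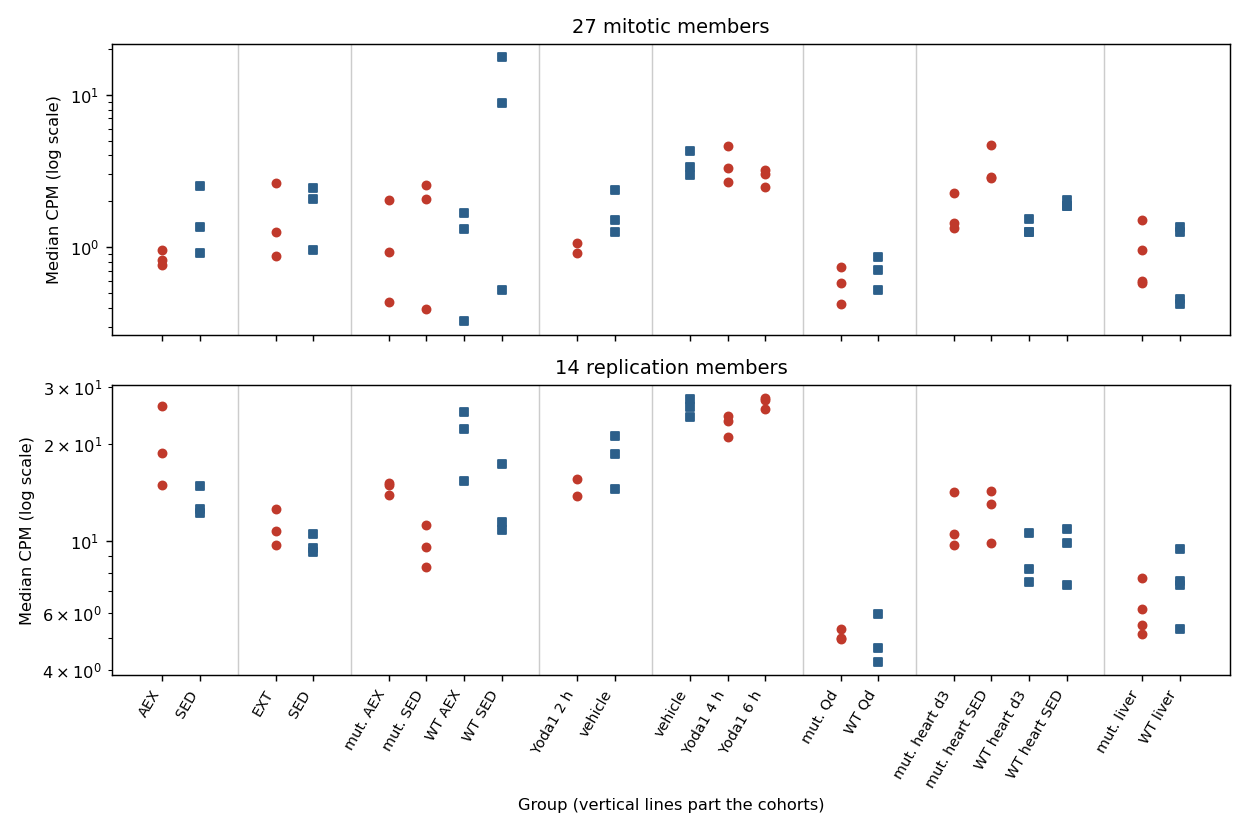
Median level of mitotic and of replication members in each library of the exercise, Yoda1, heart, liver and quadriceps cohorts (CPM, log axis), with exercised, Yoda1 or FL libraries as red circles, their SED, vehicle or WT libraries as blue squares and vertical lines between cohorts. The WT SED MmSC libraries spread between 0.53 and 17.7 CPM in the mitotic panel.

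In the heart, mitotic RNA was low and few of its differences passed the test. FL against WT at rest called no gene at the adjusted threshold by edgeR (0%), and DESeq2 called 1 member. There were 11 members at an unadjusted p under 0.05, for which no share of all genes is given. The median mitotic level was 2.83, 4.66 and 2.89 CPM in FL and 2.03, 1.87 and 1.85 CPM in WT, and 14 members had all FL libraries above WT, against 5.57% of all genes. Cdk1, of smallest p, had 5.31, 9.09 and 4.53 CPM in FL and 1.96, 1.54 and 1.46 CPM in WT (1.93 ± 0.42, adjusted p = 0.92). Cenpa, the mitotic member of highest mean CPM, had 48.8, 46.0 and 39.5 CPM in FL and 49.3, 42.8 and 49.6 CPM in WT, and Rrm1 32.1, 30.3 and 30.5 CPM in FL and 29.1, 21.8 and 27.8 CPM in WT. Only Cenpa of these overlapped. In FL and WT hearts at rest, macrophage markers summed to 603 to 676 and 519 to 583 CPM, and B cell markers to 4.17 to 5.63 and 1.93 to 2.83 CPM. Cardiomyocyte markers summed to 49377 to 50655 CPM in FL and 51486 to 53222 CPM in WT. None of these sums overlapped, and their part was not tested.

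Of the 41 members, 2 fell in FL hearts on day 3 against FL hearts at rest. Over all genes 2.7% fell, so the share of members called was near that of all genes. Top2a had 1.23, 4.87 and 3.07 CPM on day 3 and 12.8, 18.5 and 11.7 CPM at rest (-2.23 ± 0.44, adjusted p = 0.016), and Ccna2 2.67, 1.79 and 1.52 CPM on day 3 and 4.15, 9.74 and 6 CPM at rest (-1.73 ± 0.40, adjusted p = 0.028). Neither overlapped. The median mitotic log2 fold change was -1.24. Fitted on these 6 libraries alone, or without FL SED library 2 or 3, no member passed, while 4 did without FL day 3 library 2 and 7 by DESeq2. Of the other lists, Ccnd1 fell (-0.97). The 5 endothelial markers summed to 728 to 840 CPM on day 3 and 903 to 1057 CPM at rest, with 2 of them, Cdh5 and Kdr, called lower. Neutrophil markers summed to 4.78 to 8.36 CPM on day 3 and 9.80 to 13.2 CPM at rest, stromal markers to 2176 to 2942 CPM on day 3 and 1972 to 2047 CPM at rest, and red blood cell markers to 378 to 835 CPM on day 3 and 787 to 3463 CPM at rest. Only the red blood cell sums of these overlapped, and their part in the result was not tested. The FL libraries detected 21567 to 22077 genes on day 3 and 23425 to 24145 genes at rest. The part of that difference was not tested either.

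The remaining heart contrasts called no member by edgeR. WT hearts on day 3 against rest had 7 members at an unadjusted p under 0.05 and 1 called by DESeq2 (0.103% of all genes), with Top2a at 2.07, 3.23 and 1.26 CPM on day 3 and 6.22, 4.65 and 8.54 CPM at rest (-1.56 ± 0.44, adjusted p = 0.48). FL against WT on day 3 had 4 members at an unadjusted p under 0.05 and 1 called by DESeq2 (3.92% of all genes), with Aurkb at 2.7, 3.03 and 3.97 CPM in FL and 0.53, 1.38 and 1.40 CPM in WT (1.55 ± 0.46, adjusted p = 0.066). Neither gene's groups overlapped. Cenpa and Rrm1 again had the highest mean CPM of their classes, with no correction for length, with Cenpa at 49.9, 44.7 and 43.8 CPM in FL and 47.3, 44.5 and 41.6 CPM in WT on day 3, and Rrm1 at 27.5, 32.3 and 26.4 CPM in FL and 26.5, 23.4 and 21.9 CPM in WT. The interaction of genotype with CTX called no gene by edgeR (0%) and no member by DESeq2. It had 3 members at an unadjusted p under 0.05, the smallest in Cdk1. The falls of Top2a and Ccna2 in FL hearts were therefore not shown to differ from WT.

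In liver and quadriceps no gene was called between FL and WT by edgeR (0% in both), and no member by DESeq2. Of 38 members tested in liver 1 had an unadjusted p under 0.05, Cdc20, with 1.45, 0.84, 0.70 and 0.80 CPM in FL and 4.44, 3.26, 1.51 and 2.21 CPM in WT (-1.58 ± 0.45, adjusted p = 1.00), without overlap. Cenpa had 4.50, 7.14, 4.67 and 5.74 CPM in FL and 4.97, 7.92, 5.93 and 6.04 CPM in WT livers, and Mcm7 19.2, 16.8, 15.5 and 18.4 CPM in FL and 13.1, 13.8, 19.97 and 16.1 CPM in WT livers. Of 15 members tested in quadriceps none had an unadjusted p under 0.05. Aurka had 12, 7.43 and 13.4 CPM in FL and 14.3, 13.9 and 12.9 CPM in WT quadriceps, Rrm1 47.1, 45.6 and 45.4 CPM in FL and 44.3, 49.4 and 48.7 CPM in WT, and Mcm7, of smallest p, 9.09, 8.03 and 10.2 CPM in FL and 9.90, 11.2 and 14.6 CPM in WT. The groups overlapped in these quadriceps genes and in Cenpa and Mcm7 of the liver.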

How the data were processed

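RNA-seq was made from 1000 sorted cells or 2 ng of tissue RNA. The authors deposited raw counts per gene, with no normalization, aligned with STAR 2.7.3a and counted with featureCounts (version not given in the sources used here) against mm10, per the submitters' processing notes. Of 90 count columns, 78 matched a sample and 12 a group only.

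Each cohort was fitted by itself with edgeR 4.0.16 (limma 3.58.1, R 4.3.3): genes kept by a minimum count of 10, TMM scaling, robust quasi-likelihood test, Benjamini-Hochberg adjustment over all genes tested, called under 0.05. DESeq2 1.42.0 was an alternative. Tests were checked on simulated data. No pair of replicates looked like copies of 1 library (97 pairs, chi-square of 2.61 to 110.1 per gene). Shallower libraries give less precise values for low genes. All 41 members were accounted for in each comparison; values are printed for called members of the largest fold, or, where none was called, for the members of highest level in each class and of smallest p. Members and lists were chosen with earlier results of these data known.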

Additional observations from a re-analysis of the deposited data

Results flagged for a closer look

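Dixon's test at 95% marked 10 of 164 sets of member levels in groups of 4 libraries, where chance marks about 1 in 20. Top2a in TA muscle of FL mice on day 1 had 1 library at 32.4 CPM with the others at 17.1 to 19.5 CPM, and Ccne2 in WT muscle on day 1 had 1 at 15.4 CPM with the others at 11.4 to 11.7 CPM. In FL livers a single library stood apart for Bub1 (0 CPM, others 0.43 to 0.50), Ube2c (4.99, others 0.70 to 0.96), Kif23 (2.48, others 1.02 to 1.17), Mcm6 (5.51, others 8.81 to 9.37) and Rrm2 (7.84, others 5.28 to 5.54). In WT livers this was so for Ccna2 (2.13, others 1.09 to 1.27), Plk1 (0, others 1.14 to 1.29) and Cenpe (0.33, others 0).

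The FL to WT difference in TA muscle changed with the day for 17 members (edgeR joint test of genotype by day). The log2 change of that difference between days 1 and 3 was 3.29 for Plk1, 2.80 for Nusap1, 2.66 for Cdc20, 2.57 for Ccnb1, 2.54 for Kif2c, 2.46 for Birc5 and 2.07 for Aurkb. It was 1.95 for Prc1, 1.89 for Top2a, 1.88 for Anln, 1.86 for Bub1, 1.83 for Cdk1, 1.78 for Cenpf, 1.75 for Mki67 and 1.58 for Kif20a. The replication members were Rrm2 (1.68) and Ccne2 (1.00).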

How the results depend on the processing

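In MmSCs after CTX, 29 members were called, and 18 to 34 when 1 library was left out. No result reversed under any alternative run. Counts of members called under an alternative, here and above, are given without the share of all genes called under it. They do not show whether a change in count was particular to the members. Without the filter on low counts, the members called were 17 in TA on day 1, 32 on day 3, 34 for genotype by day, 5 after AEX, 1 after EXT, 10 for AEX in WT, 1 for AEX in FL, 4 for FL against WT at rest and 0 for Yoda1 at 6 h. In hearts they were 2 for FL against WT at rest, 1 on day 3, 2 for day 3 in WT and 10 for day 3 in FL. DESeq2 called 10 in TA on day 1, 30 for genotype by day, 4 after AEX, 4 for AEX in WT, and in hearts 1, 1, 1 and 7 in that same order. Fits of the compared libraries alone gave 2 in TA on day 3, 2 for AEX in WT and 0 for day 3 in FL hearts. RLE scaling changed no count of calls. With each of the 12 libraries grouped by the sample of that title, an alternative chosen after seeing the data that moves 4 of them, AEX in WT gave 0.

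Leaving out 1 library gave 0 to 7 in TA on day 1, 0 to 25 on day 3, 10 to 27 for genotype by day, 0 to 4 after AEX, 0 to 9 for AEX in WT, 0 to 1 for AEX in FL, 0 to 4 for FL against WT at rest, 0 to 4, 1 to 2 and 0 to 1 for Yoda1 at 2, 4 and 6 h, and 0 to 4 for day 3 in FL hearts. The causes were not tested. Same-numbered libraries correlated between -0.13 and 0.20 over 56 pairs. These correlations cannot exclude that the numbers pair libraries, since they use deviations from means of few libraries. A replicate block gave 5 in TA on day 1, 24 on day 3, 23 for genotype by day and 28 in MmSCs after CTX. Mitotic genes at a few counts in resting MmSCs are limited by depth.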
